A study of Mus musculus with 15 samples.

Results

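Distal stem-called cells were the 1884 cells of the distal small intestine that the submitters' cell table calls stem, out of 6495 distal cells (29.0%) and 18919 cells in all. In every one of the 18919 cells the call equalled the presence of at least 1 UMI (a counted molecule) of Lgr5, the Wnt-amplifying receptor that marks crypt base stem cells, or of the eGFP reporter. All mice were 6 months old and of the strain Lgr5-eGFP-IRES-CreERT2, a knock-in in which eGFP and an inducible Cre follow the Lgr5 promoter. The control group was 2 mice on a purified diet with 10% of its energy from fat, and the high fat group was 3 mice on a diet with 60% of its energy from fat. The length of feeding is not given in the sources used here. The reporter of this knock-in is expressed in only a fraction of crypts, and the call also depends on how many molecules were counted in a cell. In each mouse 98.3% to 100% of distal stem-called cells had a UMI of Lgr5 and 1.72% to 5.31% had one of eGFP, so the call rested mainly on Lgr5.

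Intestinal stem cells divide at the base of the crypts and give rise to absorptive enterocytes and to secretory cells. When fat is abundant, fatty acids act as ligands of the PPAR receptors, which raise the genes for carrying fatty acids into mitochondria and oxidising them there. The distal small intestine is also where bile acids are taken up for return to the liver.

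The series holds 15 Seq-Well libraries (a picowell method for single cells), 1 for each mouse and each of 3 organs, with 324 to 1920 cells and 2020756 to 42346752 UMIs a library. The distal stem-called cells numbered 231 and 565 in control mice 1 and 2 and 354, 233 and 501 in high fat mice 1, 2 and 3. Their median UMIs a cell were 6573 and 21098 in the control mice and 11230.5, 5956 and 17441 in the high fat mice, so control mouse 2 and high fat mouse 3 were the deeper libraries. Median mitochondrial shares were 16.4% and 14.9% against 11.9%, 22.3% and 13.6%, and the groups overlapped. Olfm4, which marks crypt base cells, had a UMI in 91.6% to 98.0% of stem-called cells of each mouse and in 50.5% to 75.1% of the other distal cells. Ptprc, the pan-leukocyte antigen, had a UMI in 3.86% to 7.06% of stem-called cells. At least 2 marker genes of T cells or of B and plasma cells were seen in 6.93% and 33.3% of stem-called cells of the control mice. In the high fat mice the shares were 18.4%, 5.58% and 63.1%, so they were highest in the deeper libraries. Distal libraries shared 5 cell barcodes over 10 pairs, at most 2 a pair.

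The share of distal cells called stem did not differ by diet beyond the spread between mice. It was 21.4% and 35.8% in the control mice and 34.8%, 25.1% and 26.5% in the high fat mice, which overlap. The means were 28.6% ± 10.2 (SD, n = 2) and 28.8% ± 5.28 (SD, n = 3), a difference of 0.216 percentage points (exact two-sided permutation test over 10 splits, p = 1). The smallest p that 2 against 3 mice allow is 0.1. After thinning each cell to 3000 UMIs the shares were 14.3% and 19.1% against 19.9%, 19.3% and 11.1%, a difference of 0.0428 percentage points (exact permutation p = 1).

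Of 12339 genes tested in distal stem-called cells, 1 passed the threshold for diet (0.0081%), in the higher direction (edgeR quasi-likelihood test, Benjamini-Hochberg adjusted p under 0.05). No gene was called without control mouse 2, without high fat mouse 2 or with the distal samples fitted alone, where the counts were 0 in each. By edgeR 0 genes were called lower (0%), with 162 lower genes (1.31%) among the 330 (2.67%) at an unadjusted p under 0.05. DESeq2 called 5 genes higher, Acadl, Acot1, Mgll and Rab15 among them, and 4 lower, while limma voom called 1 gene in each direction. Levels below are CPM (counts per 1000000 UMIs of the sum), given for control mice 1 and 2 and then for high fat mice 1, 2 and 3.

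**Figure D1:**
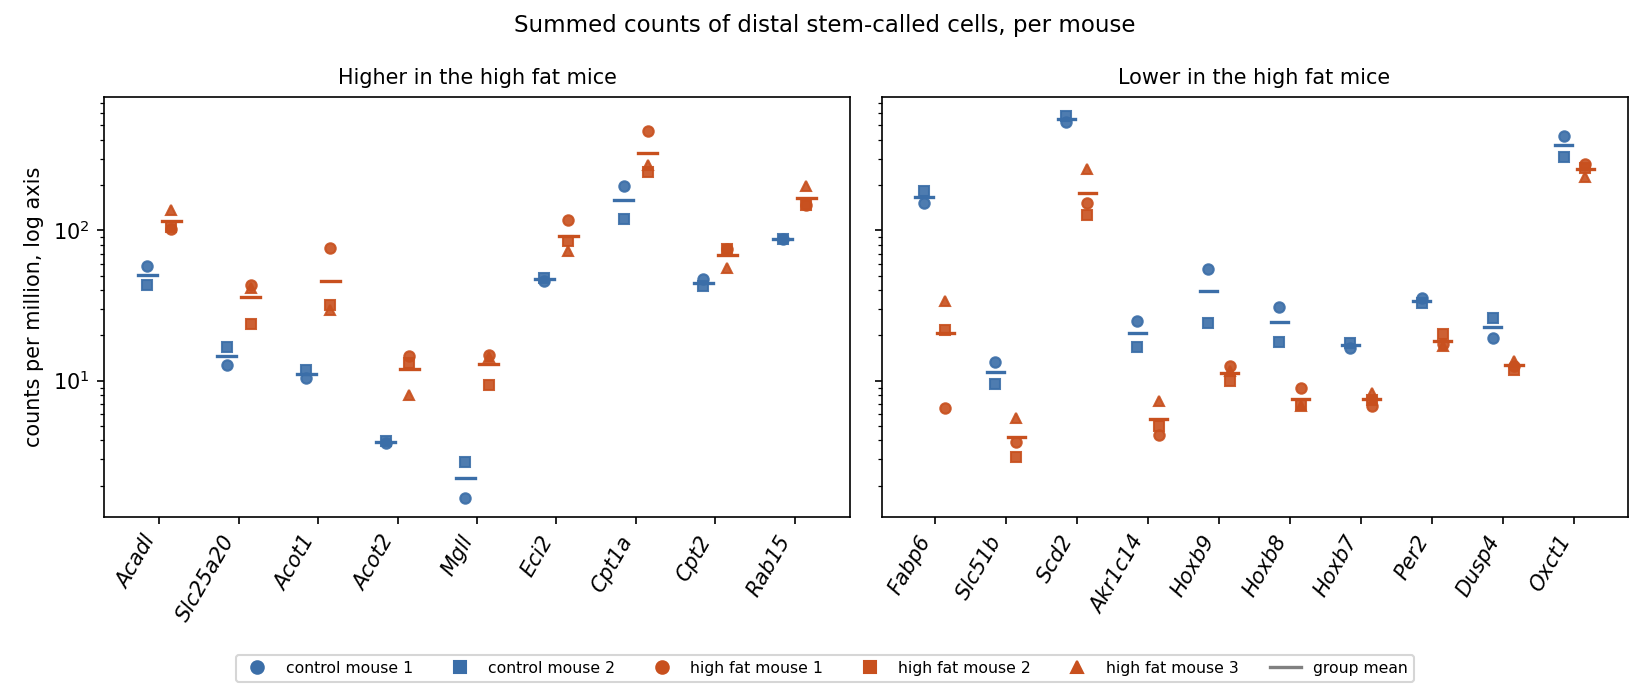
CPM in the summed counts of distal stem-called cells, on a log axis, for genes with higher (left) and lower (right) levels in the high fat mice; each point is 1 mouse and each bar a group mean. The groups do not overlap for any gene shown, and Acadl is at 57.8 and 43.3 CPM in the control mice and 102 to 137 CPM in the high fat mice.

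Many genes of fatty acid entry and mitochondrial oxidation stood higher in the high fat mice without passing the threshold one by one. Of 35 tested PPAR target genes, 0 were called and 15 were higher in every high fat mouse than in either control mouse, against 7.98% of all genes, and 0 were lower in every one. Their median log2 fold change was 0.44, and it ran from 0.34 to 0.53 when 1 mouse was left out. As a log2 ratio of CPM with 10 CPM added, which pulls low genes towards 0, the median was 0.21 within the deeper mice (control mouse 2 and high fat mouse 3) and 0.40 within the other 3. The list was chosen with earlier results on these mice known, and it shares members with the oxidation lists. Of 5 tested carnitine shuttle genes, 3 were higher without overlap and 0 lower (median 0.58, and 0.33 within the deeper mice on the scale with 10 CPM added). Of 19 tested mitochondrial beta oxidation genes, 7 were higher without overlap and 0 lower (median 0.21). Of 18 peroxisomal genes 1 was higher without overlap, a share below the 7.98% of all genes, and 0 lower (median 0.30). With 1 mouse left out these medians ran from 0.13 to 0.31 and from 0.18 to 0.35. Within the deeper mice, with 10 CPM added, they were 0.12 and 0.20, and within the other 3 mice 0.31 and 0.10.

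Acadl, the long-chain acyl-CoA dehydrogenase of beta oxidation, was at 57.8 and 43.3 CPM in the control mice and 102, 104 and 137 CPM in the high fat mice. The groups did not overlap, and the log2 fold change was 1.17 (SE 0.23, adjusted p = 0.241). Slc25a20, the carrier that brings acyl-carnitines across the inner mitochondrial membrane, was at 12.7 and 16.6 CPM against 42.9, 23.6 and 41.4 CPM (log2 fold change 1.25, SE 0.27, adjusted p = 0.526). Cpt1a, which makes those acyl-carnitines, was at 196 and 119 CPM against 458, 243 and 273 CPM, again without overlap (log2 fold change 1.01, SE 0.37, adjusted p = 1). High fat mouse 1 was the highest for Cpt1a and Slc25a20, and high fat mouse 3 for Acadl.

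Further along the pathway, Cpt2, which releases the acyl group inside the mitochondrion, was at 47.3 and 42.4 CPM against 74.8, 74.6 and 55.7 CPM (log2 fold change 0.58). Eci2, an isomerase for unsaturated fatty acids, was at 46.2 and 48.5 CPM against 117, 85.2 and 73.2 CPM (log2 fold change 0.92). Both had an adjusted p of 1 although no high fat mouse reached down to a control mouse. Etfdh, Acadvl and Acaa2, which pass on electrons, start the cycle on very long chains and cleave the last bond, had log2 fold changes of 0.42, 0.58 and 0.58 and did not overlap between groups. Crat, the acetyl-carnitine transferase, was the tested member of the carnitine shuttle with a lower level in the high fat group (log2 fold change -0.35, adjusted p = 1).

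Acot1, Acot2 and Mgll, hydrolases that release free fatty acids, showed the same order of groups. Of 10 tested acyl-CoA thioesterases, 0 were called and 6 had log2 fold changes above 0 (median 0.17). Acot1 and Acot2 were the 2 higher without overlap, against 7.98% of all genes, and 0 were lower. Acot1, a cytosolic acyl-CoA thioesterase, was at 10.5 and 11.8 CPM in the control mice and 76.3, 31.7 and 29.6 CPM in the high fat mice (log2 fold change 1.99, SE 0.46, adjusted p = 0.655). Acot2, its mitochondrial relative, was at 3.85 and 3.96 CPM against 14.6, 13.1 and 7.97 CPM (log2 fold change 1.52). Acot1 and Acot2 are close paralogs, and reads could have been split between them. Mgll, which cleaves monoacylglycerols, was at 1.65 and 2.87 CPM against 14.8, 9.33 and 14.4 CPM (log2 fold change 2.34, SE 0.44, adjusted p = 0.241). For these 3 genes every high fat mouse was above both control mice.

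Levels were near the limit of counting for Creb3l3, a lipid-responsive transcription factor, at 0 and 0.544 CPM against 2.62, 1.24 and 3.99 CPM. Pdk4, which holds back glucose oxidation, was at 1.1 and 0 CPM against 12.9, 4.98 and 1.43 CPM. Fabp1, the liver-type fatty acid binding protein, was at 0 and 4.19 CPM against 1.96, 4.35 and 23.8 CPM, and the groups overlapped. Fabp2, its intestinal relative, and Me1, a source of NADPH, had log2 fold changes of 0.33 and 0.20 and overlapped between groups.

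Fat desaturation showed lower levels. Of 18 tested genes of fatty acid synthesis and desaturation, 0 were called, 5 were lower in every high fat mouse, against 5.15% of all genes, and 1 was higher (median log2 fold change -0.21). The median was 0.04 without control mouse 1 and -0.37 without control mouse 2, and -0.02 within the deeper mice with 10 CPM added. Scd2, at chr19:44293674-44306864 on the plus strand of GRCm38, introduces a double bond into stearate and palmitate. It was at 528 and 579 CPM in the control mice and 152, 127 and 254 CPM in the high fat mice. Every high fat mouse was below both control mice, and the log2 fold change was -1.67 (SE 0.30, adjusted p = 0.164). DESeq2 called Scd2 lower (log2 fold change -1.68, adjusted p = 0.00023). Scd1, the liver-type isoform, was at 19.3 and 8.78 CPM against 7.41, 3.11 and 0.409 CPM (log2 fold change -2.001, adjusted p = 1). Acacb, whose product malonyl-CoA restrains Cpt1a, was the member higher without overlap, at 2.75 and 0.932 CPM against 21.4, 8.09 and 7.67 CPM (log2 fold change 3.17, adjusted p = 1). Of the 18 members, 5 had log2 fold changes above 0.

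Fabp6, the cytosolic bile acid binding protein of the ileum, had the smallest p on the lower side. It lies at chr11:43596049-43601540 on the minus strand of GRCm38. Its level was 151 and 181 CPM in the control mice and 6.54, 21.8 and 33.9 CPM in the high fat mice, without overlap, and high fat mouse 1 was the lowest. The log2 fold change was -3.01 (SE 0.47, adjusted p = 0.0824), which did not pass the threshold. DESeq2 and limma voom called Fabp6 lower (log2 fold changes -3.02 and -3.25, adjusted p = 0.000319 and 0.0136). Both subunits of the basolateral bile acid exporter were also lower in every high fat mouse, Slc51a at 26.4 and 33.3 CPM against 5.23, 13.1 and 21.4 CPM and Slc51b at 13.2 and 9.48 CPM against 3.92, 3.11 and 5.62 CPM (adjusted p = 1 for each). Fabp6 and these subunits were 3 of the 7 tested genes of ileal bile acid transport, against 5.15% of all genes lower without overlap, and 0 were higher. The median of the 7 was -0.71, with a range of -1.08 to -0.20 when 1 mouse was left out, and it was -0.31 over the 6 members other than Fabp6. Within the deeper mice, with 10 CPM added, it was -0.01. Slc10a2, the bile acid importer, and Fgf15, the hormone that reports bile acids to the liver, did not pass the filter on low counts.

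A list of distal small intestine genes, of which Fabp6 and the exporter subunits are members, showed lower levels for many members. Of 20 tested genes, 0 were called and 9 were lower in every high fat mouse, against 5.15% of all genes, with 0 higher without overlap (median -0.71, and -1.07 to -0.48 when 1 mouse was left out). Without Fabp6 it was 8 of 19, with a median of -0.64, and within the deeper mice, with 10 CPM added, the median of the 20 was -0.24. The summed level of the list was below both control mice in high fat mouse 1 alone, at 1882 and 1316 CPM in the control mice and 828, 2223 and 4447 CPM in the high fat mice. Most of that sum in high fat mice 2 and 3 was Itln1, an intelectin that is also on the Paneth list, at 680 and 382 CPM against 244, 1638 and 3670 CPM. It was 1 of 2 members higher at an unadjusted p under 0.05, beside 7 lower. Hoxb9, a homeobox gene of posterior identity, was at 55 and 24.2 CPM in the control mice and 12.4, 9.95 and 11.6 CPM in the high fat mice (log2 fold change -1.77, SE 0.36, adjusted p = 0.526). Its neighbours Hoxb8, at 30.8 and 18.1 CPM against 8.94, 6.84 and 6.75 CPM, and Hoxb7, at 16.5 and 17.9 CPM against 6.76, 7.46 and 8.28 CPM, were lower as well. All 3 lie within one cluster on chromosome 11, and in proximal stem-called cells Hoxb9 and Hoxb8 were at 0 CPM in all 5 mice. In distal cells outside the stem call, Hoxb9 was at 46.9 and 17.3 CPM against 14.7, 12.2 and 15.8 CPM. The part of sampling position along the gut in the Fabp6 difference was not tested, and position and diet cannot be told apart with 1 distal library a mouse.

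Genes of mature enterocytes, a list that also holds Fabp6, had a median log2 fold change of -0.34, which ran from -1.003 to -0.11 when 1 mouse was left out and was -0.32 without Fabp6. Of 20 tested members, 0 were called, 2 were lower without overlap, Fabp6 and Slc51a, against 5.15% of all genes, and 0 were higher. Within the deeper mice, with 10 CPM added, the median was 0.15, and within the other 3 it was -0.095. Summed over the list, stem-called cells held 1697 and 1929 CPM in the control mice and 1533, 1135 and 1650.5 CPM in the high fat mice, without overlap. Without Fabp6 the sums were 1546 and 1748 CPM against 1527, 1113 and 1617 CPM, and high fat mouse 3 lay between the control mice. Sis, the brush border sucrase-isomaltase, was at 67.1 and 253 CPM against 24.6, 24.3 and 71.2 CPM, so high fat mouse 3 overlapped control mouse 1 (log2 fold change -2.002, adjusted p = 1). In summed cells, a smaller number of enterocyte-like cells and less RNA in each cannot be told apart, and the part of these markers in the Fabp6 difference was not tested.

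Stem cell genes showed no called change. Of 30 tested stem cell genes other than Lgr5, 0 were called, 1 was higher without overlap and 0 lower (median 0.03), and the Wnt target list had 2 higher and 0 lower of 22 (median 0.06), against 7.98% and 5.15% of all genes. With 1 mouse left out these medians ran from -0.06 to 0.13 and from -0.02 to 0.15. Olfm4 was at 4611 and 3914 CPM in the control mice and 7182, 4324 and 4303 CPM in the high fat mice (log2 fold change 0.26, SE 0.23, adjusted p = 1), and only high fat mouse 1 was above both control mice. Ascl2, the Wnt-responsive factor of stem cell fate, was at 51.7 and 78.8 CPM against 73.2, 79 and 73.3 CPM (log2 fold change 0.15, SE 0.26). Smoc2, a matrix protein of stem cells, and Axin2, the Wnt feedback gene, had log2 fold changes of 0.01 (SE 0.19) and -0.06 (SE 0.29). Mki67, which marks cycling cells, was at 734 and 995 CPM against 992, 1312 and 1083 CPM (log2 fold change 0.36, SE 0.33), and the DNA replication and mitosis list had 3 of 43 members higher without overlap, near the 7.98% of all genes (median 0.19, but -0.08 without control mouse 1 and 0.50 without control mouse 2). In data simulated from these samples, the test recovered 17.5% of genes changed by 1 on the log2 scale and 78.1% of those changed by 2, so changes of 1 or less were mostly below what 2 against 3 mice could call.

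**Figure D2:**
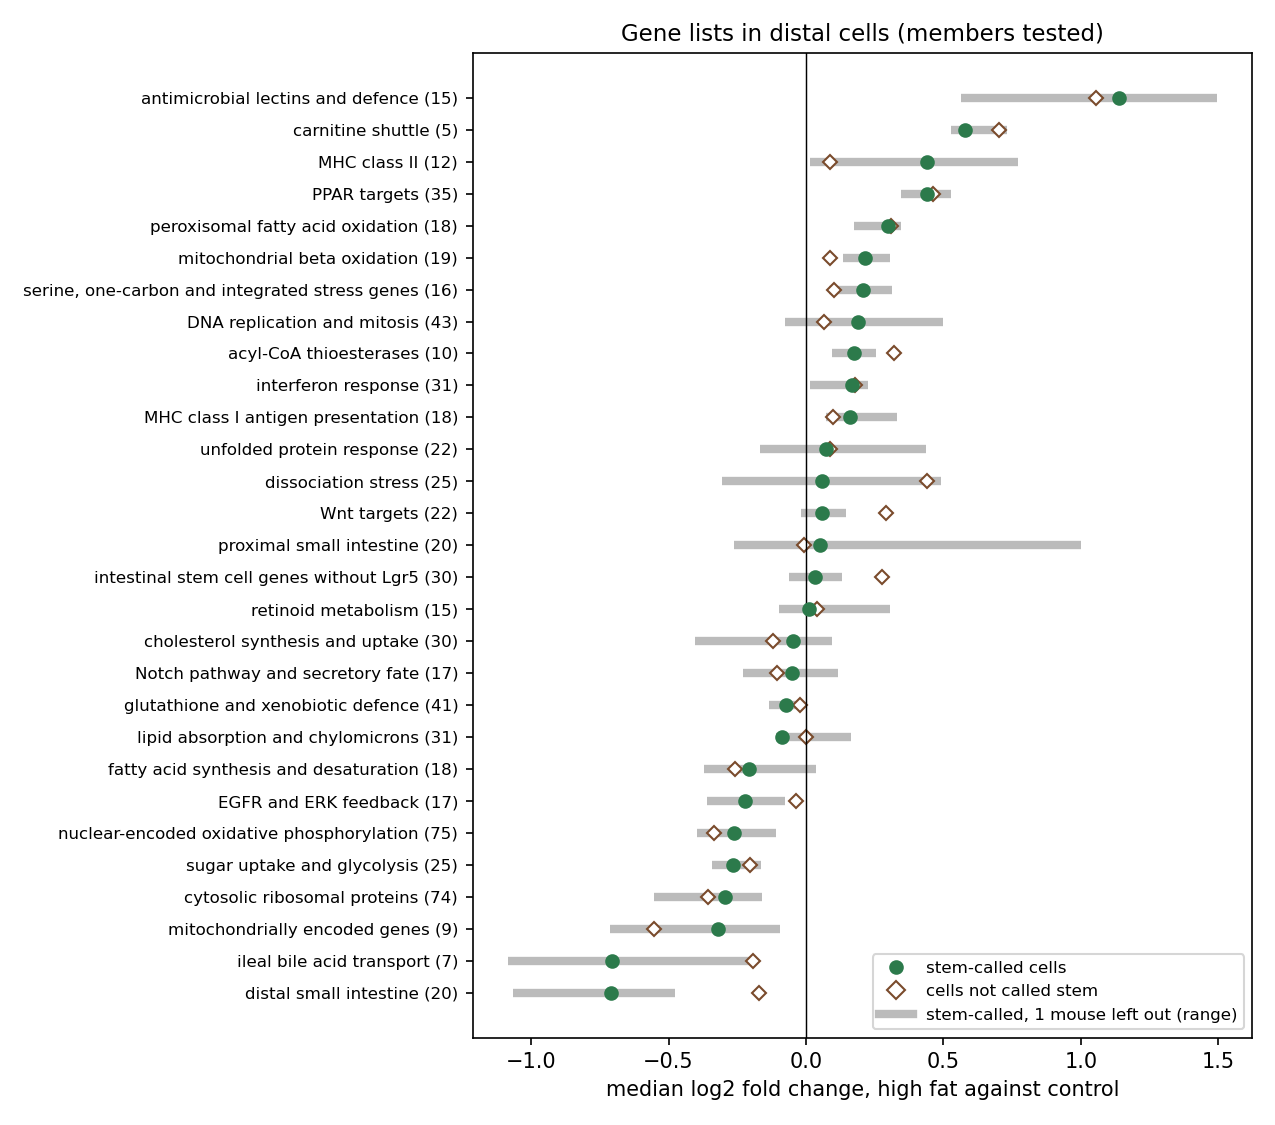
Median log2 fold change of each gene list, high fat against control, in distal stem-called cells (filled circles) and distal cells not called stem (open diamonds), with the number of members tested in brackets; grey bars span the values in stem-called cells with 1 mouse left out. The PPAR target median of 0.44 and the carnitine shuttle median of 0.58 stay above 0 and the distal small intestine median of -0.71 stays below 0 in all of these fits.

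Antigen presentation and growth factor feedback were also measured. Of 12 tested MHC class II genes, 0 were called and 1 was higher without overlap, against 7.98% of all genes (median 0.44, and 0.01 to 0.77 when 1 mouse was left out). H2-Ab1, a class II beta chain, was at 321 and 214 CPM in the control mice and 621, 275 and 268 CPM in the high fat mice, and Cd74, the class II chaperone, at 319 and 350 CPM against 590, 285 and 284 CPM. High fat mouse 1 was the highest for both, and the other high fat mice were within or below the control range. Of 17 tested EGFR and ERK feedback genes, 6 were lower and 2 higher without overlap, against 5.15% and 7.98% of all genes (median -0.22, and -0.36 to -0.08 when 1 mouse was left out). Dusp4, a phosphatase that switches off ERK, was at 19.3 and 26.1 CPM against 12.4, 11.8 and 13.6 CPM (log2 fold change -0.90, SE 0.26, adjusted p = 1), whereas Etv4, an ERK-induced factor, was at 1.65 and 0.544 CPM against 5.01, 2.49 and 3.17 CPM.

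Other genes with small p-values included Rab15, an endosomal GTPase, at 87 and 88 CPM in the control mice and 148, 147 and 196 CPM in the high fat mice (log2 fold change 0.87, SE 0.18, adjusted p = 0.484). Bckdk, which restrains branched-chain amino acid breakdown, was at 57.8 and 53.8 CPM against 83.5, 93.3 and 84.2 CPM (log2 fold change 0.61). Akr1c14, an aldo-keto reductase, was at 24.8 and 16.7 CPM against 4.36, 4.98 and 7.36 CPM (log2 fold change -1.84, SE 0.32, adjusted p = 0.164). In each of these the groups did not overlap. Per2, a gene of the circadian clock, was at 35.2 and 32.7 CPM against 17.7, 20.5 and 17 CPM (log2 fold change -0.93, adjusted p = 1). The serine synthesis enzyme Phgdh, at 18.2 and 19.9 CPM against 31.8, 28.6 and 47.4 CPM, and the asparagine synthetase Asns, at 39.1 and 43.1 CPM against 47.1, 59.7 and 103 CPM, were higher in every high fat mouse. Hk2 and Slc2a1, which phosphorylate and import glucose, had log2 fold changes of -0.34 and -0.28 and overlapped between groups. Oxct1, a mitochondrial CoA transferase, was at 426 and 307 CPM against 276, 259 and 228 CPM, without overlap (log2 fold change -0.56, SE 0.18, adjusted p = 1).

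The remaining genes of smallest p with a mean of at least 20 CPM were likewise without overlap between groups, and their adjusted p-values ran from 0.695 to 1. On the higher side, Pla2g5, a secreted phospholipase, was at 19.8 and 14.5 CPM against 30.5, 34.8 and 70.6 CPM (log2 fold change 1.43). Rnase1, a secreted ribonuclease, was at 18.2 and 28.7 CPM against 47.3, 77.8 and 147 CPM (log2 fold change 1.89). Cd24a, a surface glycoprotein that is also on the tuft list, and Pdia5, a disulfide isomerase of the secretory pathway, had log2 fold changes of 0.67 and 0.71. High fat mouse 3 was the highest for each of these 4. On the lower side, 2210404O07Rik was at 277 and 495 CPM against 238, 177 and 198 CPM (log2 fold change -0.95, adjusted p = 0.695). Arglu1 and Luc7l3, both linked to splicing, and Pdcd7, a protein of the minor spliceosome, had log2 fold changes of -0.89, -0.67 and -0.85. Midn, Dak, a triose kinase, Fam213b, a prostaglandin synthase, and Igsf9, an adhesion molecule, had log2 fold changes of -0.89, -0.92, -0.80 and -0.98.

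Markers of Paneth cells, the secretory neighbours of crypt stem cells, differed widely between the high fat mice. All 16 tested Paneth genes had log2 fold changes above 0 (median 1.51), but 2 were higher without overlap, against 7.98% of all genes, and 0 were called. The median was 0.63 without high fat mouse 3 and 2.02 without high fat mouse 1, and it was 0.42 within the shallower mice (control mouse 1 and high fat mice 1 and 2) with 10 CPM added. Summed over the list, stem-called cells held 3932 and 3056 CPM in control mice 1 and 2 and 2098, 11972 and 21287 CPM in high fat mice 1, 2 and 3. High fat mouse 1 was below both control mice and the other 2 were above them. In distal cells outside the stem call the sums did not overlap, at 826 and 697 CPM against 1705, 8404 and 4511.5 CPM. There 12 of 16 tested members were higher without overlap, against 9.56% of all genes (median 2.67). Lyz1, the Paneth cell lysozyme, was at 605 and 637 CPM against 830, 3073 and 4803 CPM (log2 fold change 2.20, SE 0.65, adjusted p = 1), and Mmp7, which activates defensins, at 220 and 186 CPM against 306, 585 and 1237 CPM (1.78, SE 0.58). Lyz1 had a UMI in 84.6% of stem-called and 83.2% of other distal cells of high fat mouse 3. In the other mice these shares were 14.3% to 55.8% and 8.95% to 45.5%. After thinning to 3000 UMIs they were 36.5% and 34.3% in high fat mouse 3, and 7.04% to 17.0% and 5.03% to 24.1% in the other mice. In cells thinned to 3000 UMIs edgeR called Lyz1, Mmp7 and Itln1 higher (log2 fold changes 4.91, 2.62 and 4.67).

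Marker lists of enteroendocrine, goblet and tuft cells were highest in high fat mouse 3. Enteroendocrine genes summed to 417 and 304 CPM in the control mice and 435, 405 and 1325 CPM in the high fat mice, goblet genes to 1925 and 3633 CPM against 1894, 3174 and 6531 CPM, and tuft genes to 362 and 555 CPM against 608, 595 and 1056 CPM. Of these sums, those of the tuft genes alone did not overlap between groups. Members higher without overlap were 6 of 19 enteroendocrine, 0 of 14 goblet and 1 of 13 tuft genes tested, against 7.98% of all genes. High fat mouse 3 held 41 of the 60 distal stem-called cells marked as doublets. T cell genes summed to 156 and 114 CPM against 150, 70.9 and 120 CPM, which overlap. B and plasma cell genes summed to 52.8 and 23.4 CPM against 86.5, 29.9 and 150 CPM, which overlap too, although 3 of 11 tested members were higher without overlap. One was Igha, the heavy chain of IgA, at 3.3 and 1.55 CPM against 13.7, 5.6 and 95.4 CPM (log2 fold change 4.36, SE 1.30, adjusted p = 1). In distal cells outside the stem call the B and plasma cell sum did not overlap, at 162 and 93.6 CPM against 860, 272 and 669 CPM. The epithelial lectins Reg3b and Reg3g, which bind bacteria, were at 2045 and 2312 CPM in high fat mouse 3 and between 104 and 389 CPM in the other 4 mice. The antimicrobial list had 5 of 15 members higher without overlap, against 7.98% of all genes (median 1.14, and 0.57 without high fat mouse 3). Within the shallower mice, with 10 CPM added, its median was 0.00. The part of these markers, or of the cells they mark, in any difference by diet was not tested. The count of called genes was 2 with the doublets left out and 1 without high fat mouse 3.

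**Figure D3:**
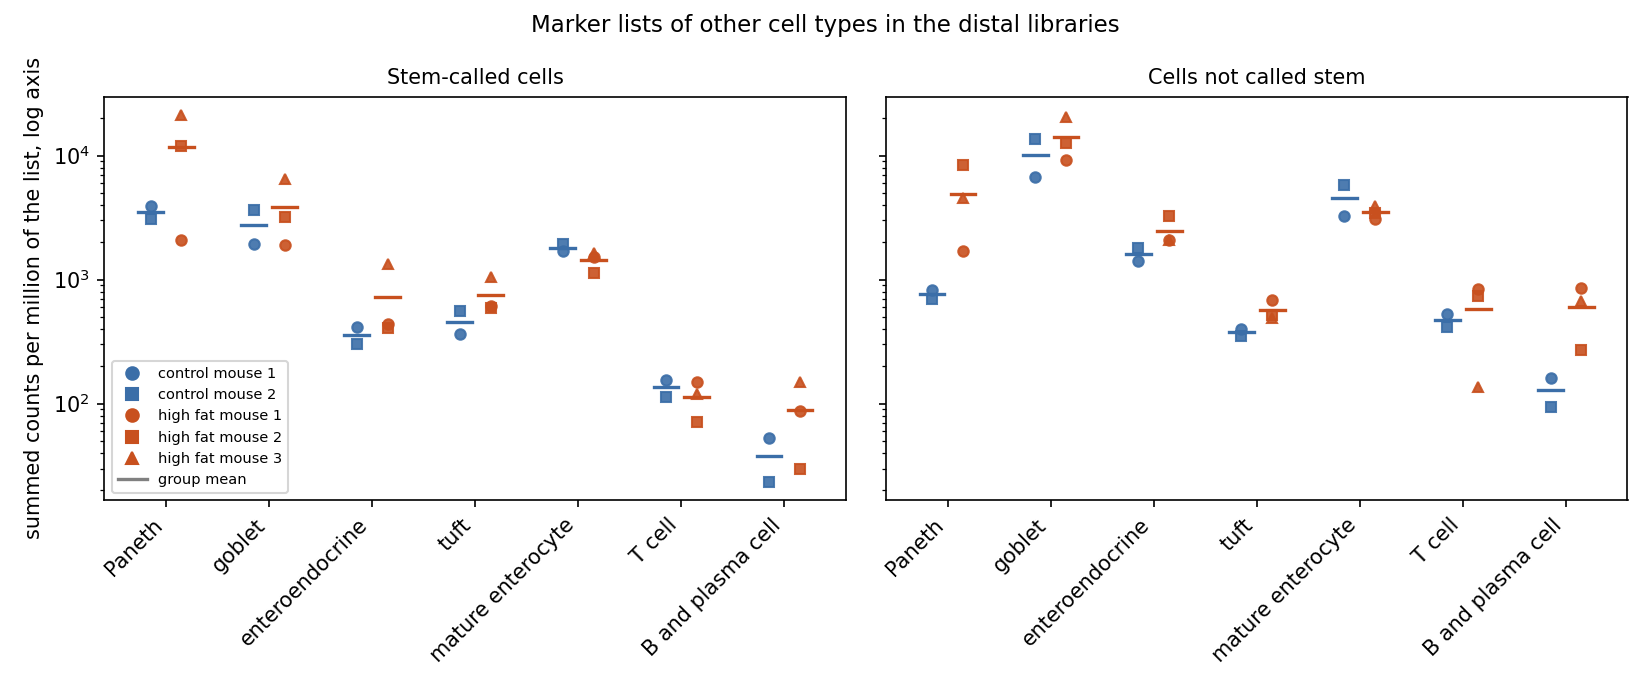
Summed CPM of 7 marker lists in each distal library, on a log axis, for stem-called cells (left) and cells not called stem (right); each point is 1 mouse and each bar a group mean. Paneth genes in stem-called cells range from 2098 CPM in high fat mouse 1 to 21287 CPM in high fat mouse 3, with the control mice at 3932 and 3056 CPM.

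Distal cells outside the stem call, from the same 5 libraries, had 1 gene called of 14307 tested (0.00699%), and 0 in every fit that left out a mouse. Fabp6 was at 577 and 875 CPM against 93.7, 256 and 312 CPM (log2 fold change -1.74, adjusted p = 1), and Scd2 at 711 and 623 CPM against 171, 149 and 269 CPM (-1.81, adjusted p = 0.33). PPAR targets had 19 of 36 members higher without overlap (median 0.46), against 9.56% of all genes.

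No gene differed in its diet change between stem-called and other distal cells by edgeR with the mouse as a block (0 of 12678 called, 0%; 347 genes, 2.74%, had an unadjusted p under 0.05). DESeq2 called 4 genes and limma voom 0. The smallest p was that of Fabp6, whose fold change was lower in the stem-called cells by a log2 difference of -1.27 (SE 0.16, adjusted p = 0.138). Fos, an immediate early gene, came next at -0.996 (SE 0.13, adjusted p = 0.138), with 389 and 249 CPM against 218, 385 and 443 CPM in stem-called cells and 225 and 195 CPM against 289, 572 and 602 CPM in the others. Sgk1, a stress-induced kinase (-1.29), Egr1 (-0.80) and Jun (-0.71), both immediate early factors, and Cachd1, a calcium channel subunit relative (-0.62), had adjusted p-values from 0.655 to 1. Without high fat mouse 3 the count was 23, Fabp6 and Fos among them, and without high fat mouse 1 it was 1.

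The diet change in distal stem-called cells was then set against that in proximal stem-called cells of the same mice. In 11877 genes tested with the mouse as a block, the change was higher distally for 17 and lower for 5 (0.143% and 0.0421%). Members of the Paneth list were 10 of the 17. In Mmp7 the difference was 2.76 (SE 0.35, adjusted p = 0.00751), from 220 and 186 CPM against 306, 585 and 1237 CPM distally and 53.8 and 15.7 CPM against 4.72, 15.5 and 22.8 CPM proximally. Defa24, an alpha-defensin, went from 952 and 726 CPM to 356, 3198 and 5099 CPM distally and from 416 and 262 CPM to 27.1, 117 and 71 CPM proximally (difference 3.64, adjusted p = 0.00751). Defensins are close paralogs, and reads could have been split among them. Distally high fat mouse 1 was below the control mice for Defa24, while proximally all 3 high fat mice were below them.

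Outside the Paneth genes, Ceacam10, a secreted adhesion family member, had the smallest p. It was at 248 and 81.3 CPM against 318, 196 and 236 CPM distally and at 71.5 and 26.8 CPM against 10.7, 7.98 and 7.2 CPM proximally (difference 3.10, SE 0.21, adjusted p = 3.75e-05). Gsta4, which conjugates lipid peroxidation products, was at 42.9 and 30.9 CPM against 21.4, 9.33 and 13.3 CPM distally and at 6.92 and 6.43 CPM against 12.9, 9.09 and 9.26 CPM proximally (difference -2.01, adjusted p = 0.0299). Alpi, the enterocyte alkaline phosphatase, was at 3.85 and 12.3 CPM against 2.62, 1.87 and 4.6 CPM distally and at 14.4 and 21 CPM against 49, 106 and 51.2 CPM proximally (difference -3.07, adjusted p = 0.0114). The count of 22 was 0 without the mouse block, 213 without high fat mouse 3 and 10 without high fat mouse 2. In simulated data of 11719 genes, this test recovered 32.3% of 99 genes changed by 1 on the log2 scale and 81.4% of 97 changed by 2. It made 11 false calls beside those.

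None of the named fat oxidation genes passed the threshold of that test. The difference was -0.60 for Acadl, -0.42 for Slc25a20, -1.01 for Acot2 and -1.94 for Mgll (adjusted p of 0.336 to 1), and -1.45 for Acot1 (SE 0.27, adjusted p = 0.0705). Me1 had a difference of -3.67 (SE 0.71, adjusted p = 0.0846), from 1.65 and 2.72 CPM against 3.05, 0.622 and 3.68 CPM distally and 1.21 and 1.17 CPM against 16.3, 26.2 and 15.6 CPM proximally. A p above the threshold does not show that the segments respond alike.

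**Figure D4:**
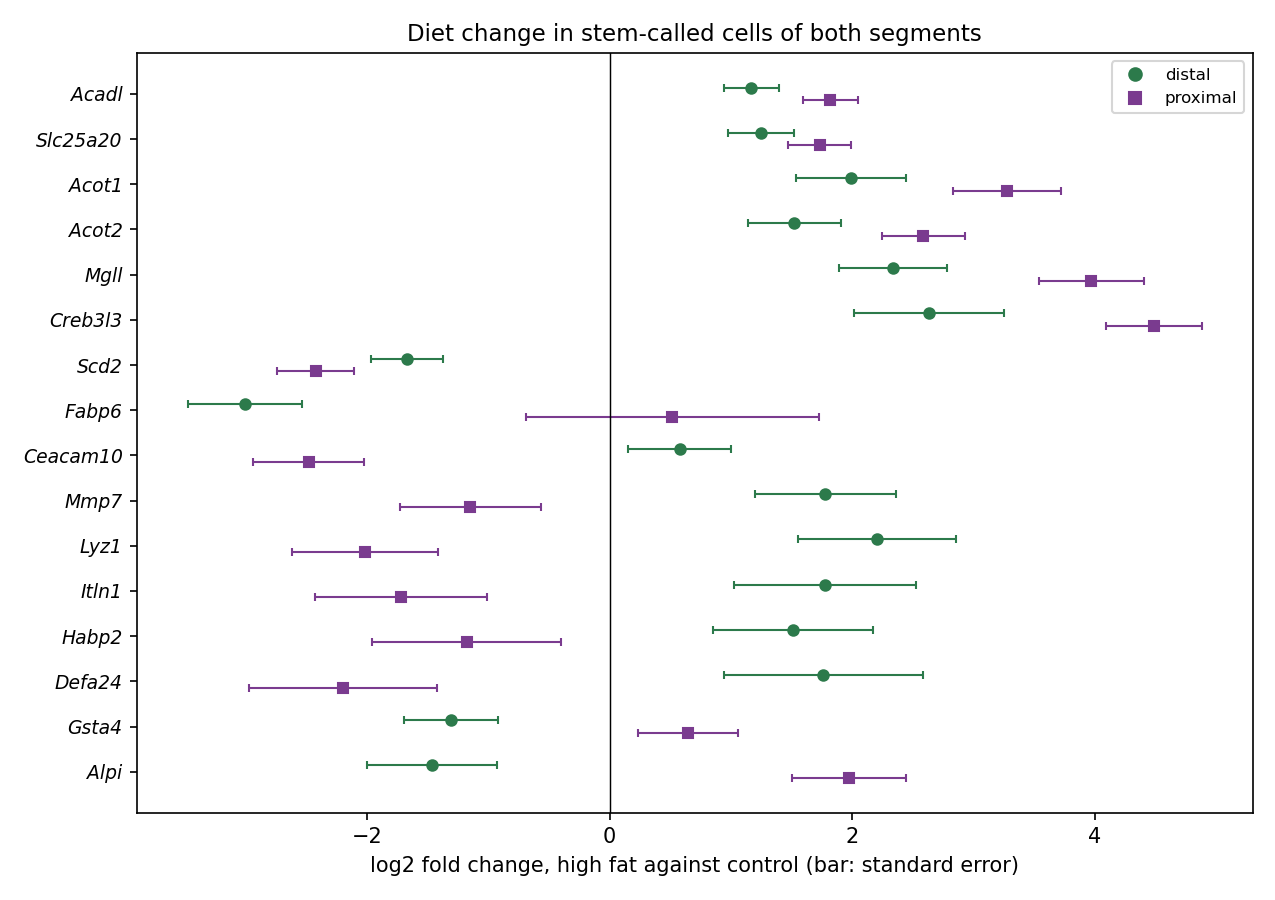
Log2 fold change, high fat against control, in stem-called cells of the distal (circles) and proximal (squares) small intestine, with standard errors. Upper rows are fat metabolism genes and Fabp6, and lower rows are Paneth genes, Alpi, Ceacam10 and Gsta4. Acadl is at 1.17 distally and 1.82 proximally, while Mmp7 is at 1.78 distally and -1.15 proximally.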

How the data were processed

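Single cells of 5 mice and 3 organs were profiled by Seq-Well, per the labels' protocols. The authors deposited raw UMI counts per gene and cell (whole numbers, mm10 per the submitters' processing notes) with a table of cells; the aligner is not given in the sources used here. In each distal library fewer genes had counts in 1 to 4 cells (48 to 303) than in exactly 5 (300 to 394), so a 0 may stand for a few cells and sets no limit. The cell table names 1 control mouse by a number the labels lack, and it was matched to control mouse 2 by elimination. Cells were taken as deposited; doublets were marked with Scrublet and left out only as an alternative. Raw counts were summed per mouse, organ and stem call, and CPM are shares of those sums. Genes passing filterByExpr were tested with edgeR 4.0.16 (TMM, quasi-likelihood, R 4.3.3) over 15 sums in 6 groups, with Benjamini-Hochberg adjustment and a threshold of 0.05. Differences of diet changes used 10 sums with the mouse as a block. DESeq2 1.42.0 and limma 3.58.1 were alternatives. The test was tried on simulated data. Coordinates are from GENCODE on GRCm38.

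Genes were named from every called gene, the 12 of smallest p on each side with a mean of at least 20 CPM, the 4 of smallest p in each list, a set of known key genes, and those called or of smallest p for each difference. Members and the 38 lists were chosen with earlier results of these data known. Some genes are not reported here and were left out of the lists; counts over all genes include them.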

Additional observations from a re-analysis of the deposited data

Results flagged for a closer look

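The diet change differed between distal and proximal stem-called cells of the same 5 mice, by the edgeR test of the difference with the mouse as a block, for 22 genes, of which 21 are given, and all values are the distal minus the proximal log2 fold change. A value above 0 says that the distal change lay above the proximal one, not that it was the larger in size. The difference was 3.10 for Ceacam10, 2.76 for Mmp7, 3.10 for Itln1, 2.59 for Habp2, 1.62 for Ccl6 and 3.78 for Clps. Among defensin genes and their predicted relatives, which are close paralogs, it was 5.81 for AY761184, 5.76 for Gm14851, 5.12 for Gm15284, 3.64 for Defa24, 4.07 for Defa17, 4.97 for Defa3 and 4.73 for Defa26. It was 1.38 for Mcf2l and 1.51 for Pxdn. For Ceacam10, Mcf2l and Pxdn the distal log2 fold changes were 0.58, 0.38 and 0.24 and the proximal ones -2.48, -0.99 and -1.26, the larger in size. The proximal change was also the larger for Clps (1.47 distally and -2.28 proximally) and for every defensin gene and relative named here. Among the latter, distal changes ran from 1.16 to 1.76 and proximal ones from -4.37 to -2.20. For Mmp7, Habp2 and Ccl6 the distal change was the larger, and for Itln1 they were 1.77 and -1.72. Distal summed levels of the Paneth list ran from 2098 to 21287 CPM among the 3 high fat mice. Proximal sums of that list were 1825 and 949 CPM in the control mice and 134, 398 and 236 CPM in the high fat mice, without overlap. The part of Paneth markers in these differences was not tested.

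The difference was below 0 for Alpi (-3.07), Gsta4 (-2.01), Akr1c19 (-2.05), Ces1f (-3.66) and Gm10800 (-1.50). Alpi and Gsta4 had distal log2 fold changes of -1.47 and -1.31 and proximal ones of 1.97 and 0.65. For Akr1c19, Ces1f and Gm10800 the distal ones were -0.68, -0.97 and 0.012. Their proximal ones were 1.44, 2.77 and 1.46, the larger in size. Afp had a fitted difference of 11.51, but it was seen in 1 or 2 high fat mice only, at 4.98 and 0.102 CPM distally and 0.443 CPM proximally, and in 1 control mouse proximally at 5.77 CPM, so the fitted value is no measure of size.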

How the results depend on the processing

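The count of genes called in distal stem-called cells was 1 in the main fit and 3 with no filter on low counts, 2 with limma voom, 9 with DESeq2, 0 with the distal samples alone, 3 with the depth set as a factor, 6 in cells thinned to 3000 UMIs, 2 without doublets, 2 without cells holding immune genes, and 0 to 1 when 1 mouse was left out. Leaving out cells with immune genes took away 316 of the 501 stem-called cells of high fat mouse 3. With the replicate number as a block the count was 9. By the labels' numbers, deviations of same-numbered mice correlated at 0.355 and 0.0569 over 2 pairs. The cell table numbers control mouse 2 as 3, and its deviations correlated at 0.332 with those of high fat mouse 3, the other deeper library. Deviations of 2 control mice from their mean mirror each other, so control mouse 1 had -0.332 there. For any high fat mouse the 2 control mice thus have values of opposite sign, and these correlations cannot show a pairing. The block used the labels' numbers. Whether a number stands for a batch was not tested, and a call lost or gained under this block is no measure of pairing. In distal cells not called stem the count of 1 became 0 by relative log expression, 0 with limma voom, 15 with DESeq2, 0 with the distal samples alone, 4 with the replicate block and 0 when any 1 mouse was left out. For stem-called against other cells it was 4 with DESeq2 and 0 to 23 when 1 mouse was left out. For distal against proximal it was 162 with no filter, 0 without the mouse block and 10 to 213 when 1 mouse was left out. The difference in stem share ran from -6.98 to 7.41 percentage points when 1 mouse was left out.

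Of 73 genes with a diet change in distal stem-called cells fitted and described here, 58 kept their direction in every alternative, Acadl, Fabp6 and Scd2 among them, as did the 21 genes given for the segment comparison. Many of the 73, and all of the 21, were chosen by their p in the main fit. The alternatives refit the same mice, so a kept direction is no independent support. With 1 mouse left out, the log2 fold change ran across 0 for Fabp1 (-0.22 to 8.49), Me1 (-0.15 to 0.70), Ascl2 (-0.077 to 0.46), Smoc2 (-0.12 to 0.15), Axin2 (-0.36 to 0.28), Cd74 (-0.24 to 0.36), Reg3b (-1.14 to 2.15), Reg3g (-0.21 to 2.82), Slc2a1 (-0.59 to 0.066), Fos (-0.23 to 0.49), Egr1 (-0.57 to 0.076), Jun (-0.028 to 1.57), Ceacam10 (-0.0695 to 1.61). Within the deeper mice the direction turned for Ascl2 (-0.093), Smoc2 (-0.31), Cd74 (-0.29), Hk2 (0.27), Slc2a1 (0.032), and within the shallower mice for Reg3b (-1.53), Reg3g (-0.22), Fos (-0.36), Jun (-0.069). It also turned with limma voom for Smoc2 (-0.014), with the distal samples alone for Smoc2 (-0.00063), with the replicate block for Axin2 (0.0203), Fos (-0.45), at a minimum of 2 UMIs for Slc51b (0.053), Smoc2 (-0.096), without doublets for Smoc2 (-0.0014), without immune-gene cells for Me1 (-0.0017), Smoc2 (-0.012), Fos (-0.085), and in thinned cells for Fos (-0.13). With Fabp6 left out, chosen after seeing the data, the medians of the 3 lists that hold it stayed below 0. The causes were not tested. With 2 against 3 mice, changes below 1 on the log2 scale were mostly beyond detection.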
